A study of Rattus norvegicus and Mus musculus with 9 samples.

Results

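The genes described here are 9 markers of the primitive endoderm: Gata4, Gata6, Sox17, Sox7, Foxa2, Dab2, Cubn, Amn and Ttr. They were chosen by name. All 9 had a probe set with that single symbol on both array types, among 14506 named genes of the rat table and 19938 of the mouse table. Where a symbol had several probe sets, the probe set with the highest mean was used, which concerned only Dab2 on the mouse arrays (2 probe sets).

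RNA was measured on 9 arrays, 3 for each of 3 cell cultures. Rat embryonic stem (ES) cells of strain DA were grown in the medium that the labels call 3I, a name in use for media that block the FGF receptor, the ERK kinase MEK and GSK3. Rat embryonic fibroblasts, also of strain DA, were kept in GMEM with 10% FBS. Mouse ES cells of strain C57/BL6 were kept in GMEM with 10% FBS and LIF, and their feeder cells were taken away before extraction; whether feeders were removed from the rat ES cultures is not stated. Nothing in the labels says that arrays of the same group stem from separate cultures, so p-values reflect array-to-array spread alone, possibly technical.

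The primitive endoderm is the sister lineage of the epiblast, the tissue from which ES cells derive, and it forms the visceral and parietal endoderm of the yolk sac. In the mouse blastocyst FGF signalling through ERK, with the transcription factor Gata6, drives cells towards it, and Sox17, Gata4 and Sox7 come on as the lineage matures. Its differentiated cells take up maternal proteins through the receptor pair cubilin and amnionless, the products of Cubn and Amn, with the adaptor Dab2 acting in the uptake, and they secrete carriers such as transthyretin (Ttr).

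Promoter sequences from RefSeq were matched for 6 of the 9 genes. The 250 bases before the start are shown for the 3 genes of the uptake machinery, because Dab2 had the largest difference between the rat cultures, Cubn the largest difference in rank between mouse and rat ES cells, and Amn, the partner of Cubn, neither. Sequences run 5′ to 3′ on the strand of the gene, and capitals mark GATA motifs, the sites bound by Gata4 and Gata6, searched on both strands as NGATAN with A or T first and A or G last.
Dab2, GRCr8 chr2:57272050-57272299, plus strand: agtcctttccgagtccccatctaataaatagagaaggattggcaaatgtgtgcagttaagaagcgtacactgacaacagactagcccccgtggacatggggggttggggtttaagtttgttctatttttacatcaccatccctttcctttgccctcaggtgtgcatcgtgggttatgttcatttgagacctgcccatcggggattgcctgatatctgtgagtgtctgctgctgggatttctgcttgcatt
Cubn, GRCr8 chr17:81501695-81501944, minus strand: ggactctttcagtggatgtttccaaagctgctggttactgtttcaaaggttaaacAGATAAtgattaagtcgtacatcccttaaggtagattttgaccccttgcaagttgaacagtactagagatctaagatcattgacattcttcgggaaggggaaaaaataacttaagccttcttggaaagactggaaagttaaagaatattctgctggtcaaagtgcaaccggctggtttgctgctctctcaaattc
Amn, GRCr8 chr6:136132317-136132566, plus strand: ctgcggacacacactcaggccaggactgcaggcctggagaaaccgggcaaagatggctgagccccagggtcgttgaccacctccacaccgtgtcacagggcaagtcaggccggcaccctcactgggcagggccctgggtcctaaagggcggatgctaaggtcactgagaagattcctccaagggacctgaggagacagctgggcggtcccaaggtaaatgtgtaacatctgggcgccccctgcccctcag
The Cubn window held 1 GATA motif, 195 bases before the start, and the windows of Dab2 and Amn held 0. Among the other 3 genes, Ttr had 1 such motif, 217 bases before the start, and Gata6 and Foxa2 had 0. Of 33469 rat promoters of the same length, 27.0% held at least 1. A forkhead motif (TGTTTNC with A or G at the N, both strands), of the kind bound by Foxa2, was in 0 of the 6 windows and in 7.2% of all promoters. These are matches of letters, not binding sites.

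The first comparison asked how the lineage genes differed between rat ES cells and rat fibroblasts. Of the 9 genes, 2 were lower in rat ES cells, Dab2 and Gata6, and 0 were higher. The other 7 did not pass the test. A gene was called at a limma Benjamini-Hochberg adjusted p under 0.05 over all 14506 genes and a difference of at least 2-fold. That rule called 20.7% of all genes, 10.1% as lower and 10.6% as higher. The same 2 genes, and 0 in the higher direction, had an unadjusted p under 0.05. At an adjusted p under 0.05 with no fold threshold, again 2 of the 9 passed, beside 8172 of all 14506 genes. The median log2 difference of the 9 genes was -0.15, beside -0.0007 over all genes tested. Medium and cell type differed together between these cultures and cannot be told apart.

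**Figure D1:**
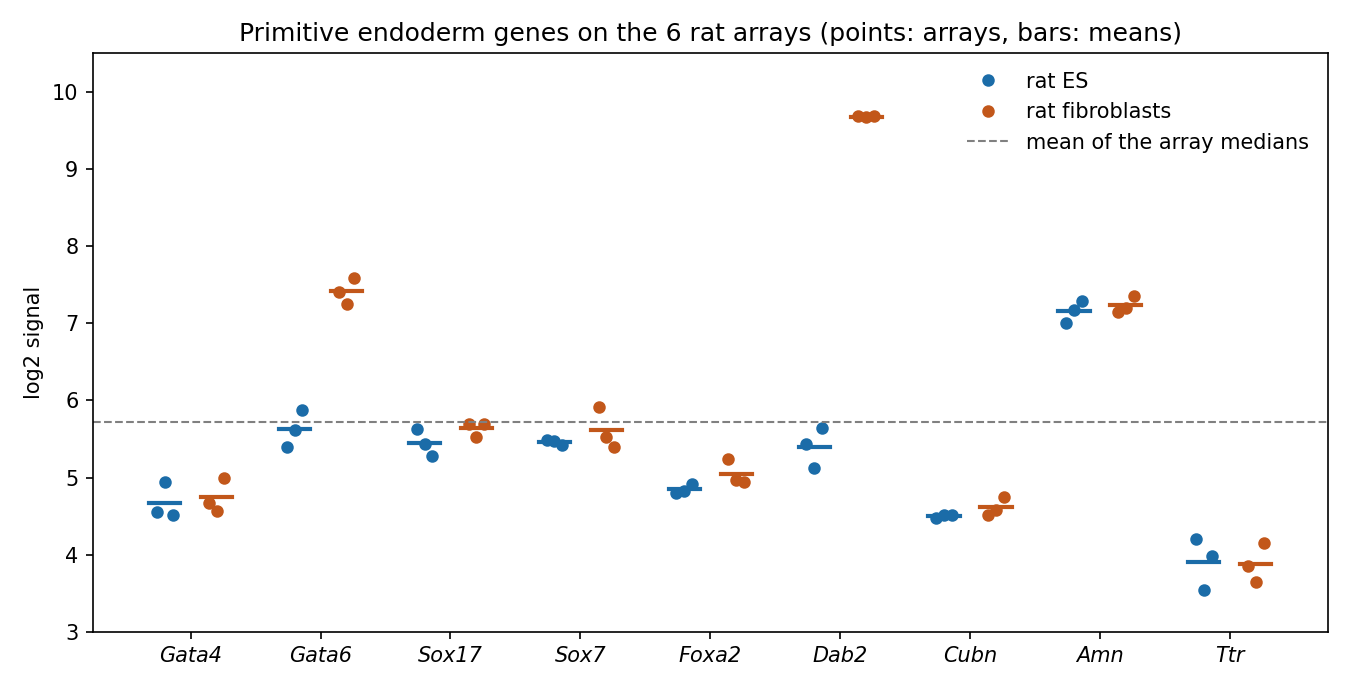
Log2 signals of the 9 genes (x axis) on the 3 rat ES arrays and the 3 rat fibroblast arrays, with 1 point per array, a bar for each mean and a dashed line at the mean of the array medians. Dab2 and Gata6 are the genes whose fibroblast points stand clear above the rat ES points; points of the other 7 genes lie close together in both cultures.

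Dab2, the clathrin adaptor, had the largest difference (rat probe set 10813361). Its log2 signals were 5.43, 5.13 and 5.64 on the rat ES arrays and 9.68, 9.67 and 9.68 on the fibroblast arrays. The groups do not overlap, and all 3 rat ES values lay under the array medians, which ranged from 5.71 to 5.74. Here and below, array medians are over all 29215 probe sets, of which 13582 were unnamed. The means were 5.40 ± 0.257 (SD, n = 3) and 9.68 ± 0.006, a log2 difference of -4.28 (SE 0.121, limma adjusted p = 2.14e-08). Dab2 was thus 19.4-fold higher in fibroblasts, with a 95% interval of 16 to 23.5. A signal under the array median was not separated from background here, so the size of this fold is uncertain.

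Gata6, the GATA factor that starts the lineage, followed (rat probe set 10800166). Its log2 signals were 5.40, 5.61 and 5.87 in rat ES cells and 7.40, 7.25 and 7.59 in fibroblasts. The groups do not overlap, and 2 of the 3 rat ES arrays were under their array medians. The means of 5.63 ± 0.236 (SD, n = 3) and 7.41 ± 0.169 gave a log2 difference of -1.78 (SE 0.133, limma adjusted p = 5.04e-06), a level 3.44-fold higher in fibroblasts (95% interval 2.79 to 4.26). The size of this fold is uncertain for the same reason as that of Dab2. Dab2 and Gata6 were both highest on array 3 among the rat ES arrays. Fibroblast markers were highest there too, for 10 of 12 markers. The share of all genes highest on that array was not computed. Genes higher in rat ES cells than in fibroblasts went both ways, with Apoe highest on array 3 and Hhex lowest. The mean log2 signal of the 12 fibroblast markers was 6.96, 7.17 and 7.40 on rat ES arrays 1, 2 and 3. It was 10.65 to 10.68 on the fibroblast arrays. None of the 12 was listed at 0, and 8 of 12 had a rat ES mean above the array medians. Those medians are not the middle of the named genes. On rat ES array 3, Gata6 lay above the median at percentile 38.0 of the genes shared with the mouse arrays. The share of all genes above the medians was not computed. The part of fibroblast markers in the rat ES signals of Dab2 and Gata6 was not tested. In a bulk culture, fewer cells of a type and less RNA per cell cannot be told apart.

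The other transcription factors of the lineage had like signals in both rat cultures. Gata4, a GATA factor of the later lineage, was at 4.56, 4.94 and 4.52 in rat ES cells and at 4.67, 4.57 and 4.99 in fibroblasts. The groups overlap, with a log2 difference of -0.08 (95% interval -0.40 to 0.25, limma adjusted p = 0.691). Sox17, an SRY-related factor needed for endoderm, was at 5.63, 5.44 and 5.28 against 5.70, 5.52 and 5.70. Its groups overlap as well, and its difference of -0.19 had an interval of -0.42 to 0.05. Sox7, a close relative of Sox17, was at 5.48, 5.47 and 5.42 in rat ES cells. Fibroblasts held both a higher value and a lower one, at 5.91, 5.53 and 5.39, and the difference was -0.15 (interval -0.44 to 0.14). It was -0.0025 without fibroblast array 1 and -0.26 without fibroblast array 3. Foxa2, a forkhead factor of visceral and definitive endoderm, was at 4.80, 4.83 and 4.92 against 5.24, 4.97 and 4.94. Its groups do not overlap, by a narrow margin, and the difference of -0.20 missed the test (interval -0.42 to 0.02, limma adjusted p = 0.109).

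Among the genes of the differentiated endoderm, the receptor subunits gave low differences. Cubn (rat probe set 10799745), which encodes the ligand-binding subunit, was at 4.47, 4.52 and 4.51 in rat ES cells and at 4.52, 4.58 and 4.75 in fibroblasts. The fibroblast values lay just above the others, and the difference was -0.12 (interval -0.30 to 0.06, limma adjusted p = 0.246). Amn, which encodes the membrane anchor of the pair, was at 7.00, 7.17 and 7.29 against 7.14, 7.20 and 7.35. Its values overlap, with a difference of -0.07 (interval -0.29 to 0.15). It was the gene among the 9 that lay above the array medians on all 6 rat arrays. Ttr was at 4.20, 3.54 and 3.98 in rat ES cells and at 3.85, 3.65 and 4.15 in fibroblasts. The groups overlap, and the difference of 0.02 had the widest interval of the 9 genes, -0.40 to 0.44.

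For the 7 genes that were not called, the 95% intervals ran from -0.44 to 0.44 at most, short of a 2-fold difference in signal either way. Of the 9 genes, 5 (Gata4, Sox17, Foxa2, Cubn and Ttr) lay under the array medians on all 6 rat arrays, where a silent gene and an unresponsive probe set look alike. No share over all genes was computed for that count. The groups do not overlap for 4 of the 9 genes (Gata6, Foxa2, Dab2 and Cubn, all lower in rat ES cells), while 61.5% of all genes had groups that do not overlap.

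**Figure D2:**
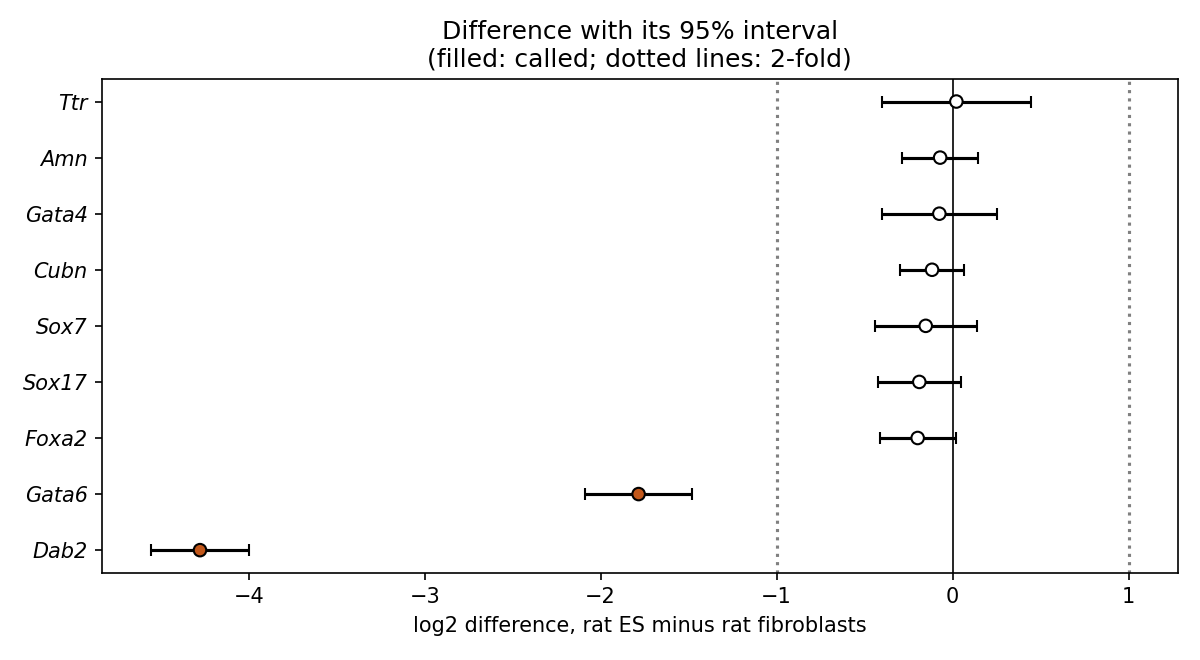
Log2 difference, rat ES minus rat fibroblasts (x axis), for each of the 9 genes with its 95% interval from limma. Filled points passed the test, and dotted lines mark 2-fold; Dab2 at -4.28 and Gata6 at -1.78 lie beyond the line, and the other 7 intervals stay within it.

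The genes whose values over the 6 rat arrays, centred on each gene's own mean, lay nearest to those of Dab2 were Clu, Mid1 and Fads3, at Euclidean distances of 0.133, 0.205 and 0.238 on the log2 scale. Clu, which encodes the secreted chaperone clusterin, differed by -4.20, Mid1 by -4.28 and Fads3 by -4.33. Nearest to Gata6 were Tent5a, Mustn1 and Kif26b, at distances of 0.184, 0.197 and 0.235. With 2 groups of arrays, such nearness mostly reflects a like difference between the groups.

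The wider set of lineage genes was read from lists of related genes. For every list below, the share to set beside its calls is 10.6% of all genes called higher and 10.1% lower. No list was tested against these shares. Of 6 measured transcription factors beyond the 9 genes, 2 rose in rat ES cells over fibroblasts and 0 fell. Hhex, a homeobox factor of early endoderm, was at 7.73, 7.62 and 6.99 in rat ES cells and at 4.12, 4.52 and 4.71 in fibroblasts. Array 3 was the lowest of the rat ES arrays, yet the groups lay far apart (log2 difference 3.00, SE 0.213, limma adjusted p = 3.83e-06). Hnf4a, a nuclear receptor of visceral endoderm and liver, was at 6.75, 6.64 and 6.77 against 5.62, 5.52 and 5.59. These groups were tight and apart, by 1.14. Of 12 measured secreted and transport genes of the visceral endoderm, 1 was called, Apoe, which encodes a lipoprotein component that many cell types make. Its signals of 11.72, 11.79 and 11.87 in rat ES cells stood above 7.16, 7.42 and 7.35 in fibroblasts. The other 11 were not called, among them Afp at means of 5.32 and 5.39 and Rbp4 at 3.82 and 4.12. With no fold threshold, 5 of the 12 had an adjusted p under 0.05, beside 8172 of all 14506 genes. The median difference of the list was -0.15, the same as for the 9 genes.

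Of 5 measured partners of the Cubn, Amn and Dab2 uptake machinery, limma called 0. Among the 5, 3 had p under 0.05 both before and after adjustment, but at less than 2-fold each. Over all 14506 genes, 8172 had an adjusted p under 0.05, so such a count is common here. The largest difference was in Lrp2, which encodes the uptake receptor megalin and is named here after its values were seen. It was at 5.76, 5.64 and 6.01 in rat ES cells and at 4.82, 4.94 and 5.03 in fibroblasts, with groups that do not overlap and a log2 difference of 0.87 (SE 0.107). Of 10 measured genes of parietal endoderm and basement membrane, 7 were called lower in rat ES cells and 1 higher, with a median of -1.92. Col4a1, a basement membrane collagen, was at 6.48, 6.74 and 6.77 against 10.65, 10.65 and 10.57. Sparc, a matrix glycoprotein abundant in parietal endoderm and in fibroblasts, was at 9.31, 9.72 and 9.93 against 13.27, 13.26 and 13.35. Both had all fibroblast values far above all rat ES values. Lama1, the laminin chain of the earliest basement membranes, ran the other way, at 9.97, 10.08 and 9.98 in rat ES cells and 5.47, 5.58 and 5.42 in fibroblasts. Fibroblasts make several of these matrix genes themselves, and the fibroblast marker list was called lower in rat ES cells for 10 of 12 genes. Whether that bears on the parietal endoderm list was not tested.

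**Figure D3:**
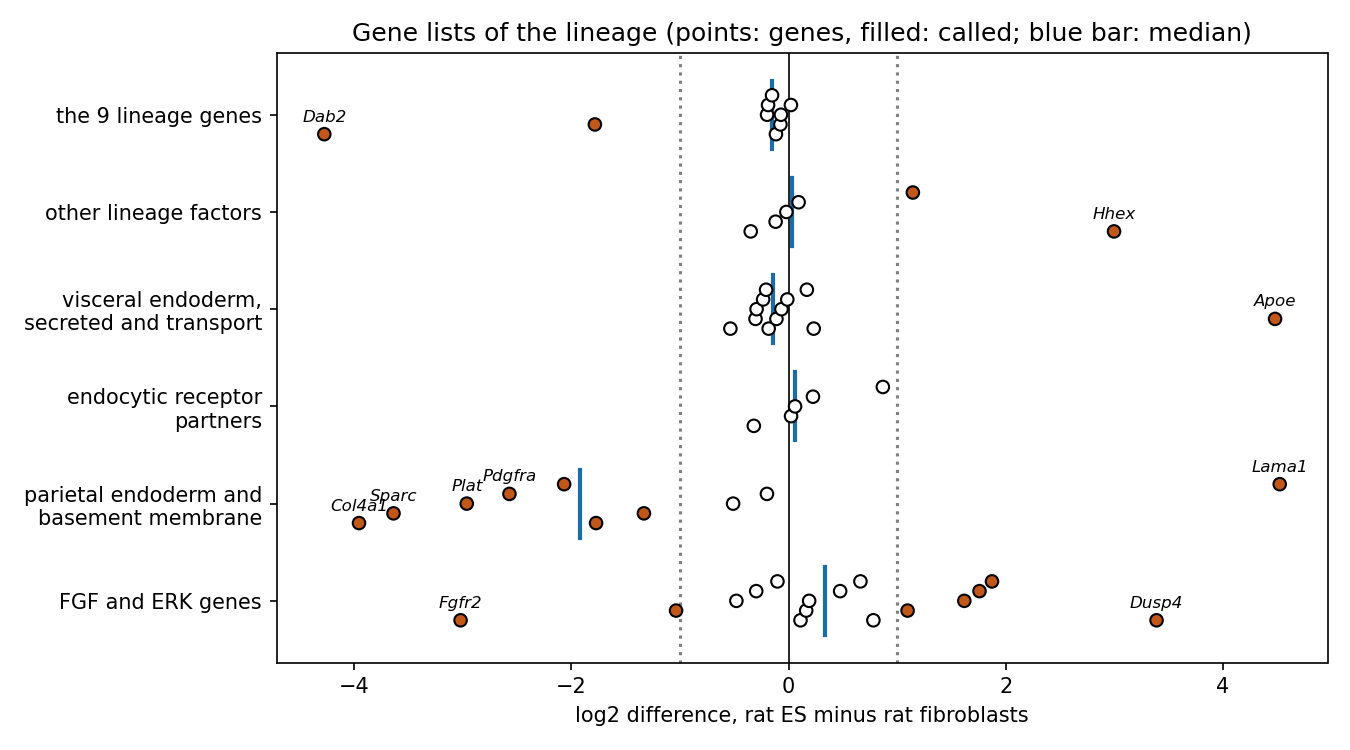
Log2 differences, rat ES minus rat fibroblasts (x axis), of each gene in the list of 9 and in the related lists (rows), with filled points for genes that passed the test, dotted lines at 2-fold and a blue bar at each list's median. The medians lie at -0.15 for the 9 genes and at -1.92 for the parietal endoderm and basement membrane genes, where Lama1 stands on the opposite side.

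Of 16 measured genes of FGF and ERK signalling, the input to the lineage, 5 passed the test as higher and 2 as lower in rat ES cells (median 0.33). Fgfr2, an FGF receptor gene of the primitive endoderm, was at 5.07, 5.26 and 5.21 in rat ES cells, well under 8.15, 8.22 and 8.23 in fibroblasts. Dusp6, an ERK phosphatase gene, was the other lower gene, at 8.36, 8.16 and 8.15 against 9.30, 9.29 and 9.18. Dusp4, of the same phosphatase family, was higher, at 9.26, 9.28 and 9.46 against 5.78, 5.95 and 6.12, and the ERK feedback inhibitor Spry2 was at 8.37, 8.48 and 8.40 against 6.59, 6.52 and 6.53. Phosphatase and feedback genes thus moved in both directions. Of 7 measured relatives of the factors in the GATA, SOX and forkhead families, 3 were called higher (Sox2, Gata1 and Foxh1) and 1 lower. The lower gene, Gata3, was at 5.51, 5.45 and 4.96 in rat ES cells and at 6.97, 6.93 and 7.15 in fibroblasts, and Gata1, the erythroid factor, was at 8.41, 7.95 and 7.95 against 5.22, 4.65 and 5.22. Among the GATA genes, Gata3 and Gata6 were lower and Gata1 was higher in rat ES cells, while Gata2, Gata4 and Gata5 were not called.

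The rat cultures differed in the markers of their labels, although 8 of 12 fibroblast markers had a rat ES mean above the array medians. No share over all genes was computed for that count. All 7 measured epiblast markers were called higher in rat ES cells, with a mean signal over the 7 of 10.36 to 10.40 on the rat ES arrays and 5.17 to 5.33 on the fibroblast arrays. Of 7 measured trophoblast markers, 4 were higher and 1 lower in rat ES cells by the same test. Of 3 measured genes of definitive endoderm and mesendoderm, 1 was called higher, and of 5 of blood and endothelium, 2. Over all 14506 genes, 10.6% were called higher and 10.1% lower, and no marker list was tested against these shares. The mean over 10 primitive endoderm markers, the 9 genes and Pdgfra, was 5.23 to 5.31 on the rat ES arrays and 6.12 to 6.27 on the fibroblast arrays. Of these 10, 3 were called lower (Dab2, Gata6 and Pdgfra) and 7 were not called, and the median difference was -0.17. Pdgfra, a receptor gene of both primitive endoderm and fibroblasts, was at 5.60, 5.63 and 5.66 in rat ES cells and at 8.23, 8.26 and 8.12 in fibroblasts.

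The second comparison set mouse ES cells beside rat ES cells. Because the 2 tables come from different array types and were normalized separately, each gene was read as its percentile within an array among the 12114 symbols shared by both. Probes differ between the array types, and species, strain, medium and array type cannot be told apart. The 3 mouse arrays share many values: 4 of the 9 genes (Gata4, Gata6, Sox7 and Ttr) had the same signal on all 3, so their agreement is no measure of replicate error, and no SD over them is given. Cubn and Foxa2 each had only 2 distinct signals on the 3 mouse arrays, so the same limit holds for them. Counted as 1 sample, the mouse arrays lay above all rat ES arrays for 8 of the 9 genes, and Amn was the added gene. No share over all shared genes was computed for that count. Mouse ES percentiles lay above all rat ES percentiles for 7 of the 9 genes, below for 1 (Sox17), and overlapped for Amn. Across all shared genes, 44.9% lay above without overlap and 42.5% below, so groups that do not overlap are the rule here. An exact two-sided permutation test of 3 arrays against 3 cannot give a p under 0.1, the value it gave for the 8 genes without overlap, and it treats the 3 mouse arrays as separate samples.

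**Figure D4:**
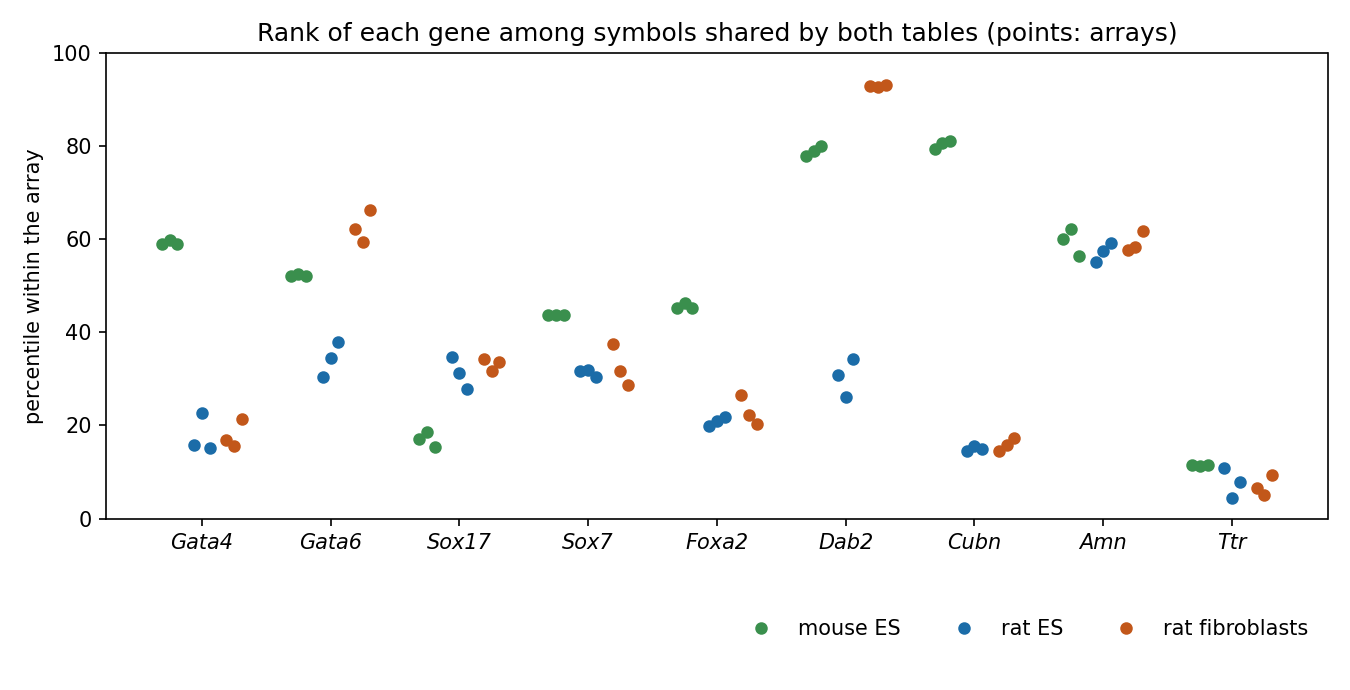
Percentile of each of the 9 genes within an array (y axis, 0 to 100) among symbols shared by both tables, with 1 point per array for mouse ES, rat ES and rat fibroblasts. Cubn, Dab2 and Gata4 show the widest steps between mouse ES and rat ES points, and Dab2 is highest in rat fibroblasts.

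The 3 widest steps were in Cubn, Dab2 and Gata4. Cubn lay at percentiles 79.3, 80.6 and 81.2 in mouse ES cells, against 14.5, 15.6 and 15.0 in rat ES cells and 14.5, 15.7 and 17.3 in rat fibroblasts. Both rat cultures were thus low and the mouse culture high, a step of 65.4 points that only 0.305% of shared genes matched or passed in size. Dab2 lay at 77.9, 78.9 and 80.0 in mouse ES cells, between 30.9, 26.0 and 34.3 in rat ES cells and 92.9, 92.7 and 93.1 in rat fibroblasts. Its step of 48.5 points, matched or passed by 1.44% of genes, rests on the brighter of 2 mouse probe sets. The other was at a log2 signal of 2.78, and with both averaged the step was 7.9 points.

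Gata4 lay at 59.0, 59.8 and 58.9 in mouse ES cells and at 15.8, 22.7 and 15.2 in rat ES cells. The step of 41.3 points was matched or passed by 2.86% of genes, and rat fibroblasts were as low as rat ES cells. Foxa2 followed with 45.2, 46.4 and 45.2 against 19.9, 21.0 and 21.8, and Gata6 with 52.0, 52.5 and 52.0 against 30.3, 34.4 and 38.0. Gata6 was highest in rat fibroblasts, at 62.3, 59.3 and 66.3. The steps of Foxa2 (24.7 points) and Gata6 (17.9 points) were matched or passed in size by 12.2% and 22.6% of genes.

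Sox7 was at a mean percentile of 43.8 in mouse ES cells and 31.3 in rat ES cells, and Ttr at 11.5 and 7.7. Amn and Ttr had the smallest steps, 2.2 and 3.8 points, and their order turned when percentiles were taken among all named genes (6.5 and 6.4), without rat ES array 2 (2.3 and 2.1) and without mouse ES array 3 (3.9 and 3.7). Amn was at 60.0, 62.3 and 56.3 in mouse ES cells and 55.2, 57.4 and 59.2 in rat ES cells. Its mouse and rat values interleave (exact permutation p = 0.4). Sox17 was the gene that ran the other way, at 17.0, 18.5 and 15.4 in mouse ES cells and 34.6, 31.3 and 27.9 in rat ES cells. The step of Sox17 was -14.3 points and that of its relative Sox7 12.5 points; the difference between them was not tested.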

How the data were processed

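The authors deposited log2 signals per probe set for 6 rat and 3 mouse arrays, 1 labelled sample per array, in 2 tables. The log2 unit was read from the range of the values. How background, normalization and probe summary were handled is not given in the sources used here. Gene names come from the annotation of the array platforms, which may be out of date; 15310 of the 29215 probe sets on the rat arrays carried a single symbol and were used (323 carried several, and 13582 were unnamed). The rat groups were compared on the deposited log2 values with limma 3.58.1 in R 4.3.3 (lmFit, eBayes, group only, no filter on level), with Benjamini-Hochberg adjustment over all 14506 genes. On simulated data with 200 of 14506 genes changed, limma called 100% of those with a log2 change of 1.5 and 100% of those with 3. Noise was drawn independently for each value, and in the data 2996 genes were called, so these rates need not hold there. Percentiles were computed in Python 3.11.15.

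The 9 genes and all lists were chosen with earlier results of these data known. Named besides the 9 are the 3 called genes with the largest difference of each list, up to 2 called genes against the list's majority, the 3 nearest patterns of each called gene, and genes named as chosen after their values were seen, or as examples of a count (Afp, Rbp4, Pdgfra, Foxh1, Gata2 and Gata5). Array number limits the precision. The replicate numbers of the labels were not treated as pairs, since deviations of same-numbered rat arrays correlated at -0.00044, 0.031 and -0.000296. Alternatives were other normalizations, filters on level, probe set rules, eBayes settings, thresholds, a replicate block, each array left out and, chosen after seeing the data, the mouse arrays averaged as 1 sample. The pairs of mouse arrays shared 16691 to 20845 identical values of 35557, against at most 30 between rat replicates. Promoter sequences are from RefSeq (GRCr8); no other coordinates are printed.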

Additional observations from a re-analysis of the deposited data

How the results depend on the processing

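Dab2 and Gata6 stayed the 2 called genes of the 9 under every setting run, with log2 differences of -4.40 to -4.14 and -1.91 to -1.67 and limma adjusted p no higher than 1.31e-06 and 4.7e-05. A replicate block in the model left 2 of the 9 and 2996 of all genes called, as without it. Over all genes, 8172 passed with no fold threshold, against 2996, and 2994 to 3035 were called when an array was left out. Median centring moved the median of all genes by 0.05. Of the genes that were not called, 3 changed sign when an array was left out: Gata4 ranged from -0.21 to 0.05, Amn from -0.14 to 0.0052 and Ttr from -0.13 to 0.21, with values of 0.0463 for Gata4 without fibroblast array 3, and of -0.126 (without rat ES array 1), -0.0163 (rat ES array 3) and -0.0979 (fibroblast array 2) for Ttr. The others kept their sign, with Sox17 at -0.28 to -0.10, Sox7 at -0.26 to -0.0025, Foxa2 at -0.26 to -0.10 and Cubn at -0.17 to -0.05. Without rat ES array 1, Sox17 had a limma adjusted p of 0.042 and stayed uncalled only because its difference was under 2-fold. With filters on level, 6 of the 9 genes remained at the 25th percentile and 3 at the median. Mouse ES percentiles lay above rat ES for 7 or 8 of the 9 genes under every setting, the eighth being Amn. The share over all shared genes, 44.9% above, was computed for the main setting only. Averaging the probe sets of a gene moved the Dab2 step from 48.5 to 7.9 points, by construction, since its second mouse probe set is dim. Percentiles among all named genes gave steps of 62.6 for Cubn, -10.8 for Sox17, 6.5 for Amn (against 2.2) and 6.4 for Ttr (against 3.8). Levels under the array medians limit what can be said of 5 of the 9 genes.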

Other observations

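Several genes related to the lineage also lay at other ranks in mouse and rat ES cells; they are named after their values were seen and were not tested. Lrp2, which encodes megalin, the partner of cubilin in uptake, was at percentiles 88.6, 89.3 and 89.3 on the mouse ES arrays and at 36.6, 34.8 and 40.0 on the rat ES arrays. Like Cubn it stood high in mouse ES cells, while the uptake partners Numb (step -17.6 points) and Clcn5 (-11.6) were lower there. Values of Amn, the partner of Cubn, overlapped. Apoa2, an apolipoprotein gene of visceral endoderm and liver, was at 95.9, 96.3 and 95.9 against 34.6, 39.9 and 34.7. It does not stand for its list: of the 11 shared secreted and transport genes, 4 lay above in mouse ES cells without overlap and 4 below, among the latter Afp (step -10.8 points), Apoa1 (-11.2), Apoa4 (-12.4) and Apom (-3.6). Hhex ran the other way, at 36.9, 36.6 and 37.1 in mouse ES cells and 67.2, 64.6 and 54.1 in rat ES cells. Of the same list of transcription factors, Sox18 (step 41.1 points) and Foxa1 (20.5) lay above in mouse ES cells without overlap. Apoe was at mean percentiles of 99.7 and 99.3. Over the 10 parietal endoderm and basement membrane genes, mouse ES percentiles lay above those of rat ES cells without overlap for 8 and below for 2, beside 44.9% above and 42.5% below over all shared genes. The same counts were 3 above and 3 below for the 6 lineage transcription factors, 3 and 2 for the 5 uptake partners, 8 and 7 for the 16 FGF and ERK genes, and 4 and 2 for the 7 other GATA, SOX and forkhead genes.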
